A study of Rattus norvegicus with 6 samples.

Results

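The least methylated large stretches of the rat autosomes in the hippocampus were the subject of this work. Each of the 20 autosomes was divided into windows of 100 kb, CpG-rich 1 kb tiles (20 or more CpG positions in any sample) were dropped, and windows with 200 or more remaining CpGs were kept. The methylation level of a window was the number of methylated reads over all reads at its remaining CpGs, pooled over 6 animals, and the 500 windows with the lowest level were chosen from 24828, which is 2.01% of them. The level itself therefore chose the windows, and the gap to the other 24328 windows is a description with no test.

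The data were whole-genome bisulfite sequences of hippocampi from Sprague-Dawley rats at postnatal day 15. The 3 iron-sufficient animals came from dams fed 200 ppm iron. The 3 iron-deficient animals came from dams fed 4 ppm iron from gestational day 2 to postnatal day 7. These dams were then given the 200 ppm iron diet, so sampling at postnatal day 15 followed a return to sufficient iron in the diet. The authors state, citing earlier work, that with this diet the hippocampus was 60% iron deficient at postnatal day 15. This is a model of fetal and neonatal iron deficiency in which the diet was given to the mother. The sources used here do not say whether the animals of a group came from separate litters, so p-values measure the spread between these 6 samples. Total coverage ranged from 432692526 to 780127386 reads at CpGs between samples, with a median of 17 to 33 reads per listed CpG. Hippocampus is a mixture of neurons, glia and vascular cells, and a level of 60% in such tissue cannot be told apart from a mixture of fully methylated and unmethylated cells.

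In adult mammalian tissues most CpGs outside regulatory sequence are methylated by the maintenance enzyme Dnmt1 and the de novo enzymes Dnmt3a and Dnmt3b. CpG islands at promoters usually stay free of methylation, and the unmethylated state spreads far beyond single islands at some developmental regulators, such as the Hox clusters, whose chromatin is held by Polycomb complexes in tissues that do not use them. Large stretches of intermediate methylation are also known in repeats and at imprinted genes, where the maternal and paternal copies differ.

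No annotation of the files' build, rn4, was used here. Genes were placed through RefSeq promoters of the GRCr8 build, each 300 bases long, by finding the same spacing of CpGs at a unique place among the rn4 positions of the files. Of 18831 promoters with 6 or more CpGs, 16024 were found at exactly 1 place and 15954 of these lay on the chromosome of the same number, which is 99.6%. The other 70 were left out. The chosen windows held 704 placed promoters of 620 genes, and a gene with too few CpGs at its promoter could not be placed, so a window described as having no placed gene may still hold genes.

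The promoters below show how much CpG content varied within the chosen windows. Each is the stretch of 250 bases before the RefSeq transcription start (GRCr8 sequence), read 5′ to 3′ in the direction of the gene, with every CpG in capitals. The Hox promoters are those with the most CpGs among the placed genes of the Hoxa, Hoxc and Hoxd clusters in the chosen windows, Ndn and Zdbf2 are imprinted genes, and Olr1433 is an olfactory receptor gene whose promoter was methylated.
Hoxc4: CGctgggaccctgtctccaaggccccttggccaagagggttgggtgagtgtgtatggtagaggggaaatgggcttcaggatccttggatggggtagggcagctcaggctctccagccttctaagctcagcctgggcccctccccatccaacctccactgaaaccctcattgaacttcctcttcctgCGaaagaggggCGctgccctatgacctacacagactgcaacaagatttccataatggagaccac
Hoxa13: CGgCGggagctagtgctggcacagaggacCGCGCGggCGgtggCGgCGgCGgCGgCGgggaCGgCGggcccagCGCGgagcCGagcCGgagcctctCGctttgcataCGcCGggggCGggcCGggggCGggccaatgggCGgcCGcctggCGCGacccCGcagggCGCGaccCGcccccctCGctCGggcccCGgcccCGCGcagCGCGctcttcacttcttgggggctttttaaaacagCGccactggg
Hoxd13: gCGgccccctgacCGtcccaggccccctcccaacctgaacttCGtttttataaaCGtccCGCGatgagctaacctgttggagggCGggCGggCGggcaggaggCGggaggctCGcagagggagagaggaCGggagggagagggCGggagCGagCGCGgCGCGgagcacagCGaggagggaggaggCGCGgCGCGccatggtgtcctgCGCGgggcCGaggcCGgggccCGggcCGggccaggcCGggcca
Ndn: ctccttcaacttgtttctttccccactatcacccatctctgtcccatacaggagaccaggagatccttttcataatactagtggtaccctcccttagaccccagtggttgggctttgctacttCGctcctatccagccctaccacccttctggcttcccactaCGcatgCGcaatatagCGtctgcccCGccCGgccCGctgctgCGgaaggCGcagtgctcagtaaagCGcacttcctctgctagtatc
Zdbf2: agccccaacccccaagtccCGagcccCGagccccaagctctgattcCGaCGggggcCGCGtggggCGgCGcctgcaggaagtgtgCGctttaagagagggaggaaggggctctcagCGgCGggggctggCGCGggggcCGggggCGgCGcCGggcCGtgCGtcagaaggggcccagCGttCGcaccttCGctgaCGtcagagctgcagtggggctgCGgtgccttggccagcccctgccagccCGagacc
Olr1433: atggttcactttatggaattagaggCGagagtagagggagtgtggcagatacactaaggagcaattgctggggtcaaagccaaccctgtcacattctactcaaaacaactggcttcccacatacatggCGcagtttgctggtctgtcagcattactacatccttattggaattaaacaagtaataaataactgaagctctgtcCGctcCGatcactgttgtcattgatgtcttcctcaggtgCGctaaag
The promoter of Hoxa13, a homeobox transcription factor of limb and hindgut patterning, had 39 CpGs in this stretch and that of Hoxd13, its relative in the Hoxd cluster, had 30. The promoter of Hoxc4 had only 3, although it lies in the least methylated window of all. Pooled over the placed CpGs, methylation was 3.60% at Hoxa13, 5.67% at Hoxd13, 7.90% at Hoxc4, 11.5% at Ndn, 3.64% at Zdbf2 and 94.9% at Olr1433. The value at Hoxc4 rests on 6 placed CpGs and depends most on the first iron-deficient animal. It was 7.48%, 0% and 0.424% in the iron-sufficient and 18.8%, 0% and 8.73% in the iron-deficient animals. The pooled level was 3.84% without the first iron-deficient animal and 10.9% without the third iron-sufficient animal. The second iron-sufficient and the second iron-deficient animal, both at 0%, had 4.5 and 10.5 reads per CpG. On rn4 the placed CpGs of Hoxa13 span chr4:80560941-80561225 on the minus strand, those of Hoxd13 chr3:57283433-57283728, those of Hoxc4 chr7:141796684-141796977, those of Ndn chr1:116594476-116594642, those of Zdbf2 chr9:61951399-61951668 and those of Olr1433 chr10:44547257-44547496, all 5 on the plus strand.

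The chosen windows formed the lower tail of the distribution of all windows. Their pooled level ran from 12.9% to 66.0%, with a median of 63.6% and quartiles of 60.6% and 64.9%, against a median of 77.7% over all windows. Only 100 of the 500 lay under 60% and 26 under 50%. The limit cut through a dense part of the distribution, since the 5 windows just inside it had levels of 65.92% to 65.97% and the 5 just outside had 65.98% to 65.98%.

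**Figure D1:**
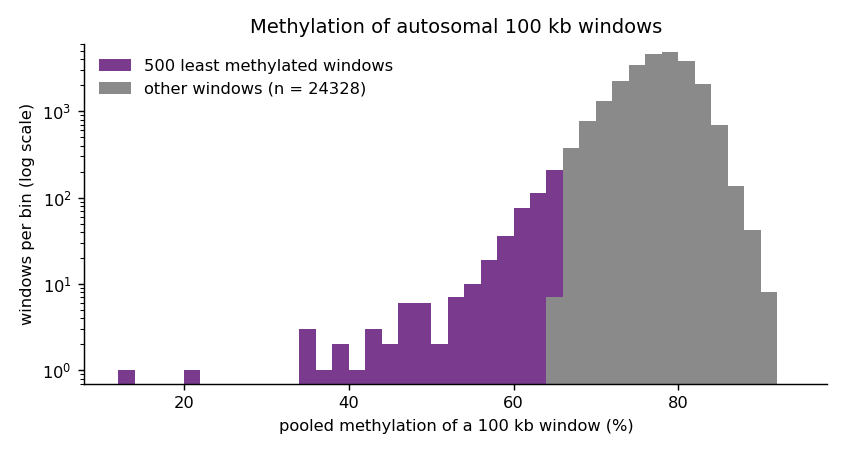
Number of autosomal 100 kb windows per bin of 2 percentage points of pooled methylation (x axis, %), on a log scale (y axis), with the 500 chosen windows in purple and the other 24328 in grey. The purple bars reach down to a single window at 12.9%, and the bin at the limit of 66.0% holds windows of both kinds.

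The difference from the rest of the autosomes was of similar size in every animal. Summed over the 500 windows, methylation was 61.2%, 60.6% and 60.9% in the iron-sufficient animals and 61.2%, 62.0% and 62.1% in the iron-deficient animals. In the other windows it was 76.4%, 76.1% and 76.9% against 76.9%, 77.7% and 77.5%. The gap was 15.6 ± 0.277 percentage points (SD, n = 6). Windows chosen in the iron-sufficient animals alone had a level of 62.3% in the iron-deficient animals, which the choice did not use, against 77.4% in all other windows, and 400 of them were among the 500 lowest there. Chosen in the iron-deficient animals alone, the windows had 61.3% in the iron-sufficient animals against 76.5%, and 400 were again among the 500 lowest.

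The lower level was made of more CpGs at low and at intermediate methylation, not of low CpGs alone. Counting single CpGs by their level pooled over animals, 13.2% of those in the chosen windows were under 20%, 44.9% were from 20% to 80% and 41.9% were at 80% or more. In the other windows the shares were 4.83%, 34.3% and 60.9%. These shares restate what chose the windows and are given without a test.

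CpG-dense tiles were dropped before the choice, so their methylation is a measure the rule did not use directly, but they lie beside the CpGs that it did use and reads can span both. In dense tiles of the chosen windows, methylation was 30.5%, 30.2% and 30.4% in the iron-sufficient animals and 29.8%, 31.2% and 32.3% in the iron-deficient animals. In dense tiles of the other windows it was 50.4%, 50.3% and 50.9% against 49.5%, 51.5% and 52.5%. The gap of 20.1 ± 0.257 percentage points (SD, n = 6) had the same direction in 6 of 6 animals. It is given without a test, because the windows were chosen in these same animals from CpGs beside the tiles. No animal's value in one set of windows came near any value in the other.

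Placed promoters were mostly unmethylated in both sets. Summed over reads, promoters in the chosen windows had 7.34 ± 0.522% in the iron-sufficient and 7.65 ± 0.582% in the iron-deficient animals (SD, n = 3 each), against 9.66 ± 0.238% and 9.59 ± 0.771% in the other windows. The median promoter had 4.06% in the chosen windows and 4.43% elsewhere. The sets differed more in their methylated promoters, since 11.8% of the 704 promoters in the chosen windows were at 50% or more, against 22.6% of 14713 elsewhere. Some promoter CpGs lie outside dense tiles and took part in the choice, so these differences were not tested.

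**Figure D2:**
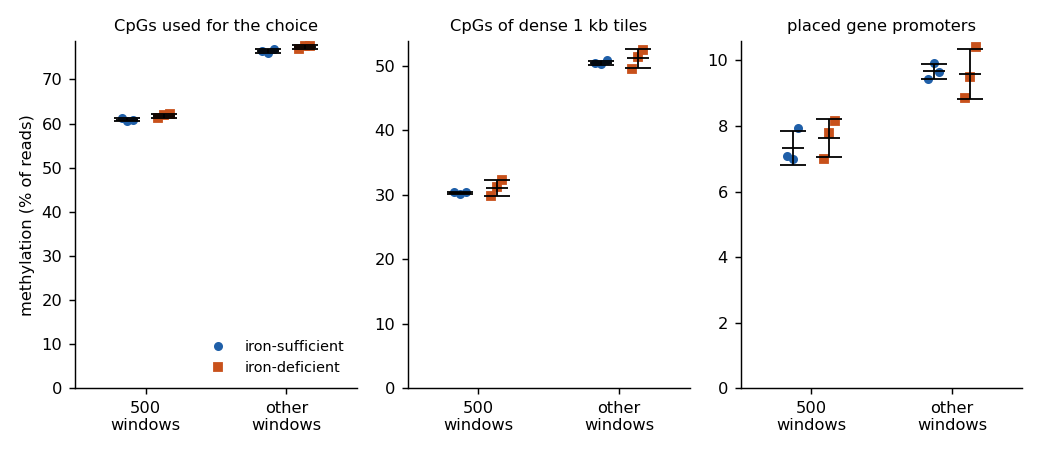
Methylation in percent of reads (y axis, from 0) in the 500 chosen and the other windows, at the CpGs used for the choice (left), in the dense 1 kb tiles that the choice left out (middle) and at placed promoters (right). Points are animals, and bars are the mean and SD of 3 iron-sufficient (circles) or 3 iron-deficient (squares) animals. In the left and middle panels every animal is lower in the chosen windows, by about 15.6 and 20.1 percentage points.

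The chosen windows were rich in CpG-dense tiles. Their median number of dense tiles was 11, against 3 in the other windows, and 55.8% held 10 or more, against 24.1%. They had a median of 1168.5 CpGs in all and 750 after dense tiles were dropped, against 771 and 672. The share of windows that were chosen was 1.29% among those with no dense tile, 0.838% with 1 to 4, 1.81% with 5 to 9, 3.41% with 10 to 19, 5.71% with 20 to 29 and 8.87% with 30 or more. A gene was placed in 53.2% of the chosen windows and in 30.8% of the others. By chromosome, the share was highest on chromosomes 20 (4.08%), 12 (4.04%) and 10 (3.90%) and lowest on chromosomes 15 (0.575%) and 14 (0.652%).

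A gap was present at every distance from dense tiles. The CpGs compared are those that chose the windows, so the gap restates the choice in part and is given without a test. At CpGs within 1 kb of a dense tile, and without CpGs over 250 reads, methylation was 56.8 ± 0.632% in the chosen windows and 73.1 ± 0.601% in the others (SD, n = 6). At 10 to 20 kb it was 66.9 ± 0.711% and 78.1 ± 0.634%. More than 50 kb from any dense tile it was 66.1 ± 0.972% and 78.4 ± 0.751%. With all CpGs it was 59.6 ± 0.964% and 78.4 ± 0.744% there. The lowest level was within 1 kb of a dense tile in both sets.

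The mean of the chosen windows was 61.5 ± 0.644% (SD, n = 6). Neighbouring windows that were themselves chosen were left out of the next values, so these are limited to windows above the limit. The mean was 73.6 ± 0.620% in windows 100 kb away and 75.9 ± 0.637% in windows 1000 kb away. Of 404 runs of adjacent chosen windows, 336 were a single window and 68 had 2 or more, and these 68 held 164 windows.

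**Figure D3:**
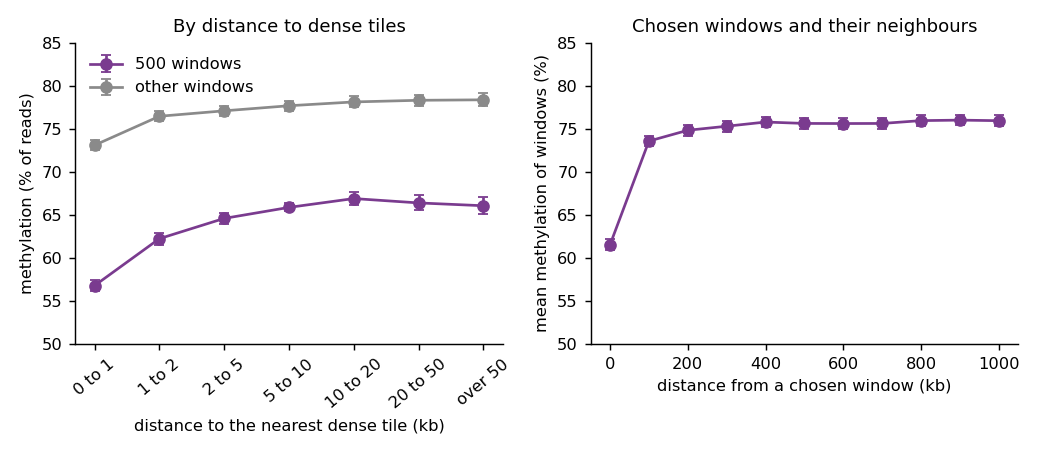
Left, methylation (y axis, % of reads) by distance to the nearest dense tile (x axis, kb) in the 500 chosen windows (purple) and the others (grey), without CpGs over 250 reads. Right, mean methylation of chosen windows (at 0) and of windows not chosen by distance from a chosen window (x axis, kb); points are the mean and bars the SD of 6 animals. Chosen windows run from 56.8% to 66.9% and lie below the others throughout, and windows not chosen have 73.6% at 100 kb from a chosen window.

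The 2 least methylated windows held Hox genes, which set positional identity along the body axis and are silent in forebrain. The window with the lowest level of all, chr7:141700001-141800000, holds the placed promoter of Hoxc4. Its methylation was 13.6%, 12.6% and 12.6% in the iron-sufficient and 13.1%, 12.8% and 12.8% in the iron-deficient animals. The second lowest, chr10:85000001-85100000, holds Hoxb1, a gene of hindbrain segmentation. It had 21.1%, 22.3% and 18.7% against 19.6%, 23.0% and 25.6%. The animals of the 2 diets overlapped in both windows.

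The Hoxa and Hoxd clusters each gave 2 chosen windows. On chromosome 4, chr4:80500001-80600000 with Hoxa3, Hoxa6, Hoxa7, Hoxa9, Hoxa10, Hoxa11 and Hoxa13 had a pooled level of 37.6% and chr4:80400001-80500000 with Hoxa2, Hoxa3l1 and Hoxa4 had 48.8%. On chromosome 3, chr3:57300001-57400000 with Hoxd1, Hoxd3, Hoxd9 and Hoxd10 had 38.0% and chr3:57200001-57300000 with Hoxd12, Hoxd13 and Evx2 had 61.7%. All 20 placed genes with a Hox symbol lay in chosen windows, 2 of them antisense transcripts, beside 4.61% of all placed genes. The genes share 6 windows and are not independent. Of their 23 placed promoters, 19 were under 10%, with a median of 5.56% and a highest value of 21.3% at Hoxaas3. Summed over reads, the Hox promoters had 5.01 ± 1.42% in the iron-sufficient and 6.74 ± 1.93% in the iron-deficient animals (SD, n = 3 each), and the animals of the diets overlapped. The Hoxa13 promoter ran the other way without overlap, with 5.12%, 8.10% and 3.96% in the iron-sufficient and 1.95%, 0.986% and 0.506% in the iron-deficient animals. It was singled out after its values were seen and was not tested.

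The low stretch was continuous between dense tiles at the window centres, and its edges were sharp on some sides and uneven on others. In 20 kb bins without dense tiles, the Hoxc window stayed between 9.49% and 15.9% from 70 kb before its centre to 30 kb after it, and methylation was 69.5 ± 2.24% at 90 kb before the centre (SD, n = 6). In the Hoxd window the level went from 17.8 ± 5.76% at 10 kb after the centre to 75.6 ± 3.57% at 30 kb. Other sides were uneven or gradual. After the Hoxb centre the level was 12.5 ± 2.70% at 30 kb, 47.4 ± 3.34% at 50 kb and 72.6 ± 5.32% at 70 kb. After the Hoxc centre it was 41.6 ± 4.07% at 50 kb, 66.1 ± 4.37% at 110 kb and 50.7 ± 8.04% at 130 kb. Before the Hoxb centre it was 78.4 ± 2.39% at 90 kb, 31.5 ± 2.81% at 130 kb and 81.9 ± 2.45% at 170 kb. After the Hoxa centre it was 73.0 ± 3.79% at 50 kb and 34.6 ± 4.95% at 70 kb.

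**Figure D4:**
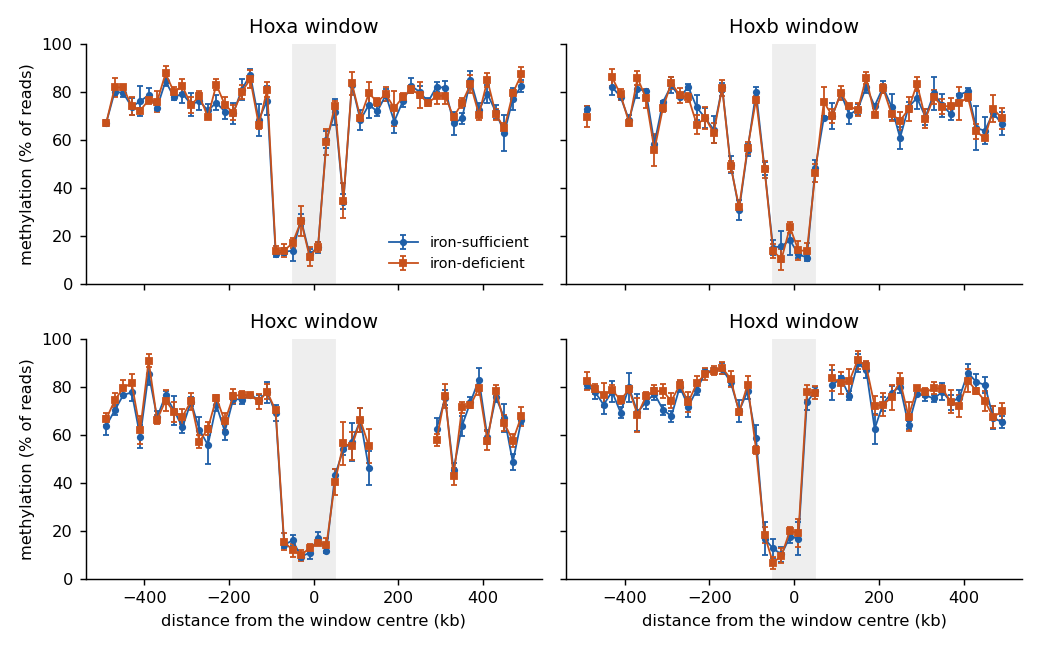
Methylation (y axis, % of reads) in bins of 20 kb by distance from the centre of the lowest window of each Hox cluster (x axis, kb), at CpGs outside dense tiles. Points are the mean and bars the SD of 3 iron-sufficient (blue) or 3 iron-deficient (orange) animals, the grey band marks the chosen window, and bins under 20 CpGs are not drawn. All 4 clusters have bins under 20% near the centre with both diets.

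A few other transcription factor genes in chosen windows are given as examples, chosen after their values were seen and with no count of such genes elsewhere. Promoters under 10% were common in both sets of windows, at 74.0% of those in chosen windows and 67.2% elsewhere. The window of Pax3, a regulator of neural crest, had 58.7% with 3.15% at the placed promoter. That of Foxa2, a floor plate and endoderm factor, had 59.8% with 17.1% at the promoter. Windows of Lhx2 and Pax6, which pattern the forebrain, had 61.5% and 65.4%, with promoters at 4.37% and 7.20%. The window of Nkx2-1, a factor of the ventral forebrain, had 63.5% with 1.62% at the promoter, and that of the neural stem cell factor Sox2 had 64.2% with 0.893%.

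Other gene families were counted by symbol in the same way. Of 27 placed protocadherin (Pcdh) genes, which encode cell adhesion molecules, 9 lay in chosen windows, in 4 windows of chromosome 18. Their promoters were intermediate, from 2.10% to 39.0% with a median of 22.3%, and only 1 of 9 was under 10%. Of 213 placed zinc finger (Zfp) genes 4 were in chosen windows. Of 44 genes of potassium channels or their interacting proteins (Kcn) there were 2, Kcnj10 and Kcnip3. Of 12 Cyp2 genes there was 1, of 8 sodium channel (Scn) genes 1 and of 4 NMDA receptor (Grin) genes 1, Grin2c. The single placed olfactory receptor gene, Olr1433, was in a window of 61.6%. No placed gene of the families Vom1r, Vom2r, Tas2r, Defb, Krt, Krtap, Cdh, Ugt, Sult, Skint, Spink, Serpin, Gabr, Lrp, Nlgn or Ctnna was in a chosen window, and no Csmd or Nrxn gene was placed. The families without a gene in a chosen window had only 1 to 19 placed genes each. With 4.61% of all placed genes in chosen windows, such small families could have none there without differing from other genes. Olr, Vom1r, Vom2r and Tas2r, large receptor families, had 1 placed gene each, so these counts say nothing about the families as a whole.

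The longest runs differed in kind. The only run of 5 windows, chr1:112100001-112600000, had no dense tile and no placed gene, and its windows had pooled levels of 62.2% to 65.4%. Its level was 63.6%, 62.0% and 64.7% in the iron-sufficient and 62.5%, 65.8% and 64.4% in the iron-deficient animals. Of the 6 runs of 4 windows, chr20:4800001-5200000 and chr20:3400001-3800000 lie in the major histocompatibility complex, which in rat carries the RT1 genes of antigen presentation. The former had 175 dense tiles, RT1-A1, the peptide transporter gene Tap1, the immunoproteasome subunit gene Psmb9 and the bromodomain gene Brd2. It had 59.6% to 60.8% in the iron-sufficient and 60.3% to 63.3% in the iron-deficient animals. The latter had 89 dense tiles, RT1-CE genes and the cytokine genes Tnf and Lta, and 3 of its 4 windows had at least 20% of their reads at CpGs over 250 reads. Its level was 56.4%, 55.0% and 58.4% against 60.2%, 57.4% and 57.6%. RT1 class I genes such as RT1-A1 and the RT1-CE genes are similar in sequence, and whether reads were assigned to the right copy was not tested.

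The lowest of the other runs of 4 windows, chr18:66000001-66400000, had 80 dense tiles and no placed gene. Its window chr18:66200001-66300000 was the fifth lowest of all, with 33.3%, 31.8% and 33.7% in the iron-sufficient and 35.7%, 37.0% and 35.0% in the iron-deficient animals. The groups did not overlap there, and edgeR's quasi-likelihood test with Benjamini-Hochberg adjustment over all windows gave an adjusted p of 0.559. The other runs of 4 windows were chr2:51900001-52300000 with 56.0% to 59.4% over the 6 animals, chr5:101200001-101600000 with 53.4% to 58.3% and chr11:16100001-16500000 with 55.6% to 59.4%, and the genes placed in them were known only by locus numbers. The third lowest window, chr19:25000001-25100000, had 3 placed genes known only by locus numbers and 33.0%, 36.6% and 29.8% against 33.1%, 37.9% and 34.2%. Of its CpGs, 31.9% were under 20% and 62.8% were from 20% to 80%. In the 6 Hox windows the share under 20% varied widely, from 21.3% in the Hoxd13 window to 76.6% in the Hoxc4 window, and the share from 20% to 80% ran from 22.5% to 36.1%.

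One of the 13 runs of 3 windows, chr1:116400001-116700000, was picked out for its genes after its values were seen, with no count of imprinted genes elsewhere. It holds Ndn, Magel2 and Mkrn3, imprinted genes of the Prader-Willi region that are expressed from the paternal copy. The run had 64.8%, 64.2% and 62.1% in the iron-sufficient and 62.0%, 65.8% and 66.0% in the iron-deficient animals, and the groups overlapped. Pooled promoter methylation was 11.5% at Ndn, 14.7% at Mkrn3 and 28.7% at Magel2. At Ndn it ranged from 4.61% to 14.4% in the iron-sufficient animals and from 5.15% to 27.8% in the iron-deficient animals, so the groups overlapped there too.

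Coverage set part of the list. In 46 chosen windows, or 9.2%, at least 20% of the reads lay at CpGs with over 250 reads in some sample, against 0.925% of the other windows. In these 46 windows 2260 of 24329 CpGs were that deep, and they had a level of 53.7% against 68.0% at the other CpGs. Without CpGs over 250 reads, 16 of the 46 windows were still among the 500 lowest, and 446 of the other 454. The fourth lowest window, chr2:145700001-145800000, is the clearest case. It had 34.4%, 25.6% and 37.5% against 35.3%, 36.2% and 40.2% with all CpGs, but 76.9%, 74.9% and 76.5% against 74.9%, 77.8% and 78.6% without its 8 deepest CpGs, which themselves were at 3.24% to 7.61%. Thin coverage, under 10 reads per CpG, was found in 9 chosen windows and in 0.0740% of the others. Whether deep CpGs are copies collapsed onto 1 place of the assembly was not tested.

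Iron deficiency was then compared with sufficiency within the chosen windows. The choice pooled both diets and did not use their difference directly. A low level with 1 diet could still bring a window under the limit. Methylation was 60.9 ± 0.292% with sufficiency and 61.8 ± 0.520% with deficiency (SD, n = 3 each), a difference of 0.871 percentage points with p = 0.2 in a two-sided exact permutation test whose smallest possible p is 0.1. The other windows differed by 0.893 percentage points (p = 0.2, same exact permutation test), and the 2 differences were 0.0223 points apart (p = 1, exact permutation test). The mean was higher in iron deficiency in 355 of the 500 windows, or 71%, beside 73.1% of all windows. The 2 groups overlapped for the summed level, as the first iron-deficient animal (61.18%) lay below the first iron-sufficient animal (61.21%). Without that iron-deficient animal they did not overlap, and the difference was 1.17 percentage points (exact permutation p = 0.1, the smallest possible). Without that iron-sufficient animal they did not overlap either, with a difference of 1.02 percentage points (exact permutation p = 0.2). They did not overlap in the 454 chosen windows outside the deep class described above, with 61.86%, 61.67% and 61.81% against 61.95%, 62.88% and 63.09% (difference 0.861, exact permutation p = 0.1, the smallest possible).

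Single windows were tested with edgeR's quasi-likelihood test on methylated and unmethylated reads, adjusted over all 24828 windows. At an adjusted p of 0.05, 1 window was called, which is 0.00403% of all, and it was a chosen one. At an unadjusted p under 0.05, 27 chosen windows (5.4%) were higher in iron deficiency beside 8.46% of all windows, and 11 (2.2%) were lower beside 0.491% of all. In either direction this made 38 windows (7.6%) beside 8.95%. All 3 iron-deficient animals lay above all 3 iron-sufficient animals in 39 chosen windows (7.8%) beside 12.9% of all, and below them in 13 (2.6%) beside 1.39%. Because a window could be chosen through its lower diet, these counts are not independent of the choice. Chosen windows also varied more between animals of a group, with a median SD of 1.97 percentage points against 1.63.

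The called window, chr2:110300001-110400000, had 58.5%, 45.6% and 53.7% in the iron-sufficient and 67.2%, 82.9% and 81.96% in the iron-deficient animals, a rise of 24.7 percentage points with an adjusted p of 0.000111 (edgeR). The iron-deficient mean of 77.3% lay above the limit of 66.0%, so the window was chosen through its iron-sufficient animals. No gene was placed in it. The difference rested on 7 of its 464 CpGs, which had levels of 1.54% to 3.96% in the iron-sufficient animals. These 7 CpGs had 502, 816 and 711 reads each on average in the iron-sufficient animals, 349 in the first iron-deficient animal and only 3.00 and 2.43 in the other two. Without them the window had 84.3%, 83.7% and 84.3% against 84.2%, 83.0% and 82.2%. No window was called when CpGs over 250 reads were left out, nor by limma, where 29 chosen windows (5.8%) had an unadjusted p under 0.05 beside 8.18% of all windows.

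Of the other windows with the largest positive differences and no overlap between diets, chr4:46400001-46500000 had 59.3%, 59.8% and 58.9% against 71.4%, 67.7% and 60.4%. There 68.0% of the reads lay at 9 CpGs over 250 reads, and the difference of 7.13 percentage points was 1.08 without them. The window chr6:139800001-139900000 had no such CpG, 54.8 ± 1.57% with sufficiency and 61.6 ± 0.834% with deficiency (SD, n = 3 each), and an adjusted p of 0.459 in edgeR. Neither passed the test.

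The 3 largest negative differences without overlap did not pass the test in the fit of all 6 animals without a replicate block. In chr17:97100001-97200000 the level was 54.8%, 59.4% and 43.5% against 31.8%, 29.6% and 32.6%, with an adjusted p of 0.0602 (edgeR), or 0.0318 with the replicate block. Without the third iron-sufficient animal this window was called, with an adjusted p of 0.00175 (edgeR). In windows shifted by 50 kb, the one starting at chr17:97050001 was called, with an adjusted p of 0.0272 (edgeR). Without the 8 CpGs over 250 reads of chr17:97100001-97200000 the levels were 65.3%, 64.6% and 63.9% against 53.7%, 42.9% and 50.1%. The difference was -15.7 percentage points, and the groups still did not overlap. Coverage was then 2.82 reads per CpG in the first iron-sufficient animal and 6.20 to 11.4 in the others. The 8 deep CpGs had 21.3 and 35.0 reads each in the first and second iron-sufficient animals and 244 to 304 in the rest. The part of coverage in the difference was not tested. The window chr5:134000001-134100000 had 68.9%, 51.3% and 43.2% against 38.8%, 38.9% and 27.0% at 2.60 reads per CpG. Its coverage was 10.8 reads per CpG in the first iron-sufficient animal, which had the highest level, and 0.549 to 1.31 in the other 5 animals. In chr1:67200001-67300000 the 3 iron-sufficient animals lay between 69.7% and 70.03% and the iron-deficient ones at 61.2%, 53.0% and 60.7%, at 12.8 reads per CpG and with an adjusted p of 0.425 (edgeR).

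The next largest negative difference among windows without overlap between diets was in the window of Zdbf2, an imprinted zinc finger gene expressed from the paternal copy in brain, and it was picked out after its values were seen. In chr9:61900001-62000000 methylation was 61.6%, 57.3% and 59.0% in the iron-sufficient and 50.9%, 51.1% and 49.9% in the iron-deficient animals, a difference of -8.69 percentage points. The groups did not overlap, and each iron-deficient animal lay below the lowest iron-sufficient animal. The adjusted p was 0.149 (edgeR), so the window did not pass. Coverage was 24.2 reads per CpG over 763 CpGs, with none over 250 reads. The promoter with its 35 placed CpGs, printed above, had 4.05%, 0.0532% and 4.86% against 5.08%, 0.124% and 10.8%, and the dense tiles of the window had 24.7%, 13.2% and 22.5% against 22.0%, 23.7% and 25.2%, so the groups overlapped at both.

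**Figure D5:**
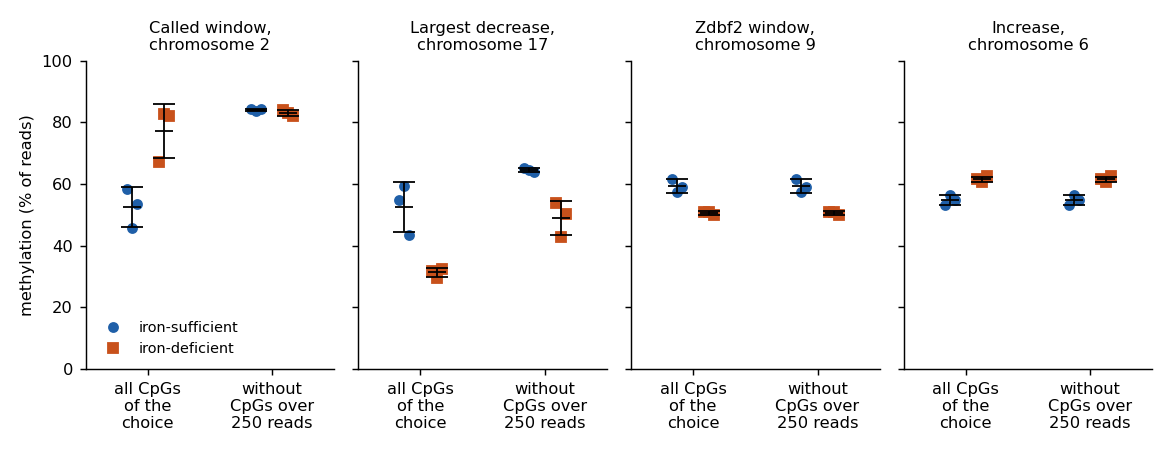
Methylation (y axis, % of reads) of 4 chosen windows in each animal, at all CpGs used for the choice and without CpGs over 250 reads; circles are iron-sufficient, squares iron-deficient, and bars the mean and SD of 3 animals. The difference of 24.7 percentage points in the called window is -0.986 without deep CpGs, that of -21.2 on chromosome 17 is -15.7, and the Zdbf2 and chromosome 6 windows hold no such CpG.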

How the data were processed

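Hippocampal genomic DNA of 6 rats was sequenced after bisulfite conversion. The authors aligned trimmed reads to rn4 with BS Seeker, took the state from read 1 where reads overlapped at a base, and merged both strands of each CpG. The deposited files list for every CpG a methylated fraction and a count of covering reads, with neither normalization nor pooling. Libraries were sequenced as paired or single reads, so the format may differ between animals. Which animal had which, duplicate removal, and whether positions start at 0 or 1, are not given in the sources used here. Groups came from the sample labels.

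Fraction times coverage was within 0.01 of a whole number at all CpGs and gave methylated counts. Windows were fitted with edgeR 4.0.16 (methylated against unmethylated reads, common dispersion, Benjamini-Hochberg over 24828 windows). Alternatives were limma 3.58.1 (pseudocount 1), trended dispersion, a replicate block, other coverage and CpG limits, shifted windows and each animal left out. Single values were compared by exact permutation tests (numpy 2.4.6), and with the replicate block by an exact sign-flip test. The edgeR fit was tested on simulated data. No counting intervals were computed, because reads lacked molecular identifiers and need not be separate molecules.

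Named windows were the 5 lowest, the longest runs, the 3 largest rises and falls without overlap between diets, called windows and genes of listed symbol prefixes. Outside this rule, and after values were seen, the text names the Ndn run, the Zdbf2 window, windows of 6 other transcription factor genes and windows of wide spread between animals. Gene placement by CpG spacing was added after seeing the files, with no coordinate conversion, and replaced a plan to place none. Windows and lists were chosen with earlier results of these data known.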

Additional observations from a re-analysis of the deposited data

How the results depend on the processing

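The diet difference within the chosen windows kept its direction under all 19 alternatives, with p from 0.1 to 0.5. The groups did not overlap (exact permutation p = 0.1, the smallest possible) without weights, without CpGs over 250 reads, at 500 CpGs per window, for the 1000 lowest, with shifted windows, without deep or thin windows and without the first iron-deficient animal, where the difference was largest, 1.17 percentage points beside 0.871. In the main comparison only that animal and the first iron-sufficient animal overlapped. Without the latter the groups did not overlap either (difference 1.02, exact permutation p = 0.2). Depth limits single windows, with as little as 2.60 reads per CpG in a chosen window.

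The gap between chosen and other windows was 15.6 percentage points. It was 14.1 with each fraction weighted alike, 14.6 without CpGs over 250 reads, 11.1 and 14.9 with at least 10 or 5 reads in all samples, 32.5 with dense tiles kept, 14.1 with tiles of 10 or more CpGs dropped, 13.9 with at least 500 CpGs per window, 18.7 for the 250 lowest, 12.8 for the 1000 lowest, and 14.7 without deep or thin windows, an alternative added after seeing the data. Of the 500 windows, 27.8% were chosen again at 10 reads (139 of the 140 that still had enough CpGs), 62.8% at 5 reads (314 of 334), 28.8% with dense tiles kept and 37% with tiles of 10 or more CpGs dropped.

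The diet difference in chosen minus other windows, -0.0223 points, turned positive in 10 alternatives. It was 0.0920 without weights, 0.0640 at 10 reads, 0.224 with tiles of 10 or more CpGs dropped, 0.0705 at 500 CpGs, 0.0777 for the 1000 lowest and 0.0827 with windows shifted by 50 kb, and ran from -0.248 to 0.143 with an animal left out. The cause was not tested.

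Chosen windows called by edgeR numbered 1. They numbered 0 without CpGs over 250 reads, at 10 reads, with tiles of 10 or more CpGs dropped and by limma, and 2 with shifted windows. They also numbered 0 without weights and with dense tiles kept, where chr2:110300001-110400000 was called but not chosen. At 500 CpGs and without deep or thin windows they numbered 0, as that window (464 CpGs, deep coverage) was left out. At 5 reads the window called was chr1:171900001-172000000 (adjusted p = 0.00523, edgeR), which was not in the main choice. With an animal left out they numbered 1 to 2. Over all windows 1 was called, with 0 without CpGs over 250 reads, with tiles of 10 or more CpGs dropped, at 500 CpGs and by limma, 3 with shifted windows, and 1 to 7 with an animal left out, 7 without the third iron-sufficient animal and 2 without the second iron-sufficient or the third iron-deficient animal. The main call stood with each animal left out. Without the third iron-sufficient animal the chr17:97100001-97200000 window was called too (adjusted p = 0.00175, edgeR), without the second iron-sufficient animal chr1:63600001-63700000 (adjusted p = 0.0278, edgeR), and without the third iron-deficient animal chr4:46400001-46500000 (adjusted p = 0.0289, edgeR). At unadjusted p, the share of chosen windows higher in iron deficiency was 5.4% beside 8.46% of all windows, and 2.8% beside 6.70% at 5 reads. The share lower was 2.2% beside 0.491% of all. At 10 reads only 4003 windows were left, and 139 of the 500 lowest were in the main choice. The share lower there was 0.8% beside 0.924%, so this mostly different set did not exceed all windows. It was 1% beside 0.667% with dense tiles kept, 1.2% beside 0.416% at 500 CpGs, 3.6% for the 250 lowest and 1.3% for the 1000 lowest, both beside 0.491%, and 1.4% to 3% with an animal left out, beside 0.447% to 0.741%.

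Replicate numbers are shared between diets, and whether they pair the samples was not settled. Correlations of same-numbered deviations from group means were 0.0210, 0.0119 and 0.0868, beside -0.0493 to 0.0295 for samples of different number. Not every sample correlated best with its own number, but the third replicates did so with each other. With the replicate block, 2 chosen windows and 3 of all windows were called, the second chosen one being chr17:97100001-97200000 (adjusted p = 0.0318, edgeR).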

Other observations

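Among the chosen windows, the widest spread between animals of a group was on chromosome 2, in windows picked out after their values were seen. Between chr2:86500001 and 87500000 lie 6 chosen windows with 5.18 to 10.1 reads per CpG and no placed gene. In these, the third iron-sufficient and the third iron-deficient animal had levels of 61.4% to 76.6%, and the other 4 animals had 26.7% to 66.8%. In chr2:86800001-86900000 the iron-sufficient animals had 34.7%, 48.2% and 75.6% and the iron-deficient animals 42.2%, 46.9% and 75.5%, at 345 CpGs of which none had over 250 reads. Coverage differed in the same way, with 13.8 and 9.59 reads per CpG in the third animal of each diet and 2.04 to 3.74 in the other 4, and its part in the result was not tested. The diet means, 52.9 ± 20.9% and 54.9 ± 18.1% (SD, n = 3 each), differed by less than this spread.

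The 44 chosen windows with no dense tile and neither deep nor thin coverage had a level of 62.5 ± 0.313% in the iron-sufficient and 64.2 ± 0.770% in the iron-deficient animals (SD, n = 3 each), and 33 of them (75%) were higher in iron deficiency, beside 73.1% of all windows. In the 267 with 10 or more dense tiles the values were 61.6 ± 0.151% and 62.4 ± 0.575%, and 191 (71.5%) were higher. The difference between the 2 kinds of window was not tested.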
